A study of Collinsia rattanii with 18 samples.

Results

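The early step of bud development in *Collinsia linearis*, from bud stage B1 to bud stage B2, was described from 6 of the 18 floral bud RNA-seq libraries of a comparison of sister species. The libraries were taken by their labels as species *C. linearis* and stage B1 or B2, and they came from 3 plants, each of which gave 1 library per stage. *C. linearis* is the predominantly outcrossing species of the pair and *C. rattanii* the highly selfing one. Both were sampled before anthesis at 3 bud stages (B1, B2 and B3, early, middle and late), told apart by organ size and color, and the question of the study was whether expression changed differently across bud development in the sister species. A *C. linearis* bud at B1 was small with green petals and green anthers, and at B2 it was larger, with mostly white petals and brown anthers. Each library pooled RNA of a few whole buds of 1 plant, so it mixed sepals, petals, stamens and carpels. The plants came from 2 populations of *C. linearis* and were grown to flowering in the same place, and the labels give no treatment and no altered allele for either species. The labels do not say which plant came from which population. A lower value at B2 can therefore reflect fewer cells of a type in the bud or less RNA per cell, and these cannot be told apart in whole buds.

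Early buds hold anthers in which the tapetum, the innermost layer of the anther wall, supplies the developing microspores. The tapetum makes and secretes the precursors of sporopollenin, the resistant polymer of the outer pollen wall (exine), and callose is the temporary wall around the microspores before they are released. In *Arabidopsis thaliana*, *LESS ADHESIVE POLLEN5* (*LAP5*) and *LAP6* encode chalcone synthase-like enzymes of this pathway. Growth of petals and stamens later in bud development involves xyloglucan, a hemicellulose that is remodelled as cell walls extend, and glycerol-3-phosphate dehydrogenase links glycolysis with the synthesis of membrane lipids.

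The 3 B1 libraries held between 23831351 and 32548321 counts on genes, and the 3 B2 libraries between 34460096 and 41451418. Of 46127 genes in the table, 27837 passed the filter on low counts. The B2 library of plant 2 had a TMM factor of 0.664 against 0.976 to 1.13 in the other 5, and its 50 most abundant genes took 15.6% of its counts against 8.84% to 9.15% in the others. The identifiers are not paired with gene names in the table, so the floral bud label could be checked only through the pollen wall genes described below.

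The B1 library of plant 1 stood apart from the other B1 libraries. Across the 27837 genes, its log2 CPM (counts scaled to a common library size, in CPM on TMM-normalized library sizes, with a prior count of 2) correlated with that of the B2 library of the same plant at Pearson's r = 0.942, and with the B2 libraries of plants 2 and 3 at 0.923 and 0.920. Its correlations with the B1 libraries of plants 2 and 3 were 0.908 and 0.835. The B1 libraries of plants 2 and 3 correlated at 0.962 with each other and at 0.802 to 0.879 with the B2 libraries. These are descriptions across genes, which are not independent replicates. Results that rest on the B1 library of plant 1 are given below with and without it.

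**Figure D1:**
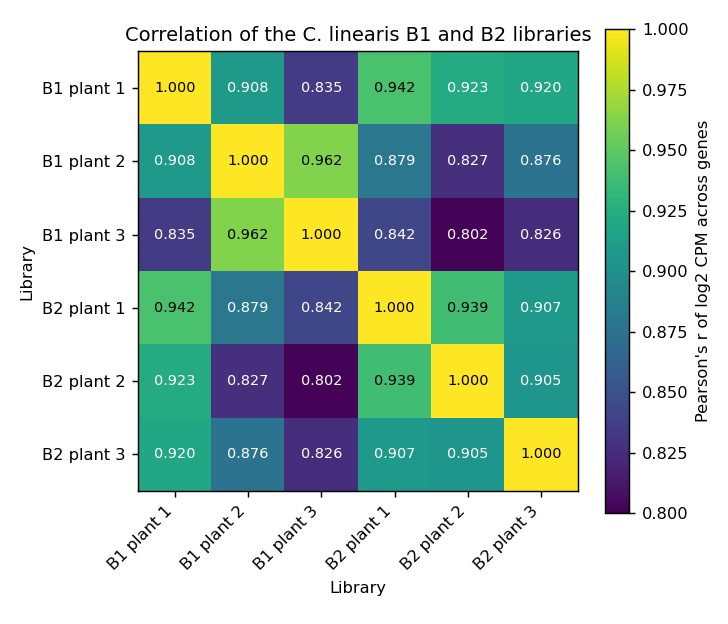
Pearson's correlation of log2 CPM across 27837 genes for each pair of the 6 *C. linearis* B1 and B2 libraries, with both axes listing the libraries and the color scale running from 0.8 to 1. The B1 library of plant 1 is closer to the B2 library of its own plant (0.942) than to the B1 libraries of plants 2 and 3 (0.908 and 0.835).

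From B1 to B2, 4 of the 27837 genes passed an FDR of 0.01 in edgeR's quasi-likelihood test (0.0144% of the genes tested). Of these, 1 rose (0.00359%) and 3 fell (0.0108%). At an FDR of 0.05, 170 genes passed (0.611%), of which 16 rose (0.0575%) and 154 fell (0.553%). An unadjusted p under 0.05 was reached by 5281 genes (19.0%), 2476 higher and 2805 lower at B2, so the calls at an FDR of 0.05 were mostly falls while the wider set was nearly even. With plant as a block, 9 genes passed an FDR of 0.01 (0.0323%, 3 higher and 6 lower at B2) and 26 an FDR of 0.05 (0.0934%, 3 higher and 23 lower), and 1 of the 4 and 24 of the 170 genes were among these at the same thresholds. The Wald test of DESeq2 called 704 of the 38589 genes with any count at an FDR of 0.01 (1.82%). Of these, 210 were higher (0.544%) and 494 lower (1.28%), and all 170 were among the 704. DESeq2 gave a p-value for 38037 genes, so its shares here are not over the genes it tested. The balance of rises and falls depended on the test, since limma-voom with a quality weight per library called 2082 higher and 920 lower at an FDR of 0.01. With the *C. linearis* libraries only, 0 of 25482 genes passed an FDR of 0.01 or 0.05 in edgeR's quasi-likelihood test (lowest FDR 0.279).

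The number of calls depended on single libraries. When the B1 library of plant 1 was left out, 369 of 28650 genes passed an FDR of 0.01 (1.29%), of which 74 rose (0.258%) and 295 fell (1.03%), and 2263 passed an FDR of 0.05, of which 1134 rose and 1129 fell. All 170 genes were among the 2263. Without the same library the plant block gave 109 higher and 174 lower at an FDR of 0.01, and DESeq2 2067 higher and 1100 lower. The median size of the log2 change was 3.37 in the 74 genes and 4.66 in the 295. No gene passed an FDR of 0.01 or 0.05 without the B1 library of plant 2. Leaving out that of plant 3 left 2 and 14 genes past these thresholds, and without the B2 libraries of plants 1, 2 and 3 in turn, 1, 0 and 0 genes passed an FDR of 0.01 and 73, 2 and 14 an FDR of 0.05. Leaving out a B3 library, which is in neither group compared but enters the filter, the scaling and the shared spread, gave 0 genes at an FDR of 0.01 each time and 56, 147 and 164 at an FDR of 0.05 for plants 1, 2 and 3.

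The gene that rose past an FDR of 0.01 was RCORA65722, which the sources used here do not annotate. Its expression at B1 was 6.06, 3.12 and 4.32 CPM in plants 1, 2 and 3, and at B2 it was 23.0, 15.99 and 18.7 CPM. All 3 plants were higher at B2, and the stages did not overlap. The log2 change was 2.095 (SE 0.27, FDR = 0.00993 with edgeR), and 2.12 with the plant block (FDR = 0.00861). It was the 1 gene of the 4 that passed an FDR of 0.01 in both fits. Expression was higher again at B3, at 42.5 CPM ± 3.76 (SD, n = 3). In *C. rattanii* the gene was at 7.10 CPM ± 2.19 at B1 and 13.2 CPM ± 1.15 at B2 (SD, n = 3), a log2 difference of 0.90 that did not pass the test (FDR = 0.703).

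RCORA221962 had the lowest p among other rising genes with at least 10 counts in each of the 6 libraries, and it passed an FDR of 0.05 only. It was at 11.9, 9.05 and 9.14 CPM at B1 and at 25.5, 28.4 and 35.8 CPM at B2 in plants 1, 2 and 3. Every plant was higher at B2, with no overlap. The log2 change was 1.58 (SE 0.26, FDR = 0.0301 with edgeR). The FDR was 0.0707 with the plant block and 0.00615 without the B1 library of plant 1. The last fit leaves out the highest B1 value of this gene, so it is not independent evidence.

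Among the 3 genes that fell past an FDR of 0.01, RCORA90323 had the greatest change. It was at 32.5, 60.2 and 53.9 CPM at B1 and at 2.52, 0.786 and 4.34 CPM at B2 in plants 1, 2 and 3. All 3 plants were far lower at B2, and the gene was still low at B3 (3.99 CPM ± 1.62, SD, n = 3). The log2 change was -4.25 (SE 0.52, FDR = 0.00993 with edgeR, 0.01005 with the plant block, just over the threshold). The *C. rattanii* libraries were at 17.98, 23.6 and 32.1 CPM at B1 and at 24.3, 16.1 and 20.6 CPM at B2, where the stages overlapped. The difference between the species in the step was -3.97 on the log2 scale and did not pass the test in all libraries (FDR = 0.139). It was -4.21 and passed without the B1 library of *C. linearis* plant 1 (FDR = 0.00870). The gene was chosen for its fall in *C. linearis*, and that fit leaves out its lowest B1 value there, so passing is not independent evidence.

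RCORA149077 and RCORA16847 also fell, the second named after its value was seen. RCORA149077 was at 261, 363 and 163 CPM at B1 and at 54.9, 39.7 and 61.9 CPM at B2 in plants 1, 2 and 3. RCORA16847 was at 90.2, 78.8 and 47.0 CPM at B1 and at 18.7, 21.5 and 23.0 CPM at B2. In both genes every plant was lower at B2 with no overlap, and plant 3 had the lowest B1 value. The log2 changes were -2.33 (SE 0.29) and -1.77 (SE 0.23), each with an FDR of 0.00993 in edgeR and of 0.0373 with the plant block. At B2, both genes were close to their level in *C. rattanii*, where RCORA149077 was at 48.7 CPM ± 1.09 and RCORA16847 at 26.3 CPM ± 2.52 (SD, n = 3). The FDR of the 4 genes past 0.01 went above 0.01 in most fits that left out 1 library, to at most 0.0850 over single libraries (RCORA149077 and RCORA16847 without the B2 library of plant 2), and to 0.345 or 0.371 for all but RCORA90323 without plant 2.

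**Figure D2:**
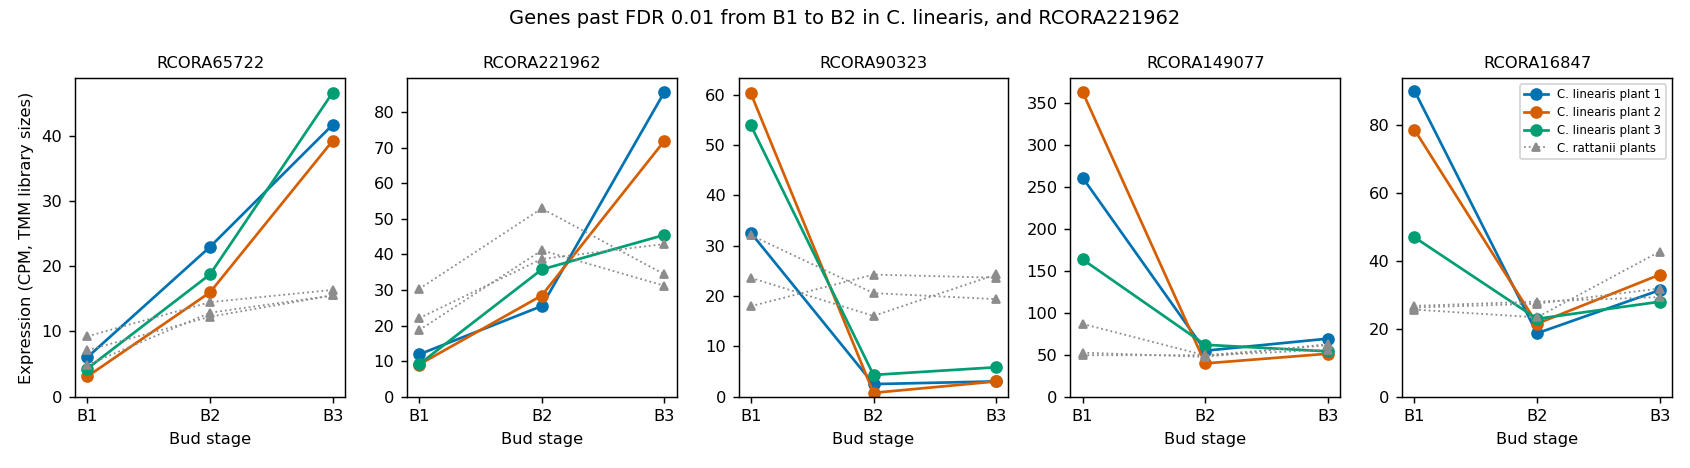
Expression (CPM on TMM library sizes, each panel with its own axis from 0) against bud stage for the 4 genes past an FDR of 0.01 from B1 to B2 and for RCORA221962. Circles joined by solid lines are the 3 *C. linearis* plants and triangles joined by dotted lines the 3 *C. rattanii* plants. In each panel the 3 *C. linearis* values at B2 lie entirely above or below those at B1.

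The listed genes of pollen exine formation were high at B1 in plants 2 and 3 and low at B2 in all plants. The study counts further genes under this term, which were not examined here. The list held 9 genes, of which 8 passed the filter on low counts, and 7 of the 8 fell at an FDR of 0.05 (0.553% of all genes tested fell at that threshold) and 0 at an FDR of 0.01. All 9 were lower in the DESeq2 test at an FDR of 0.01, as were 1.28% of the 38589 genes with any count. They include RCORA205649, which edgeR did not test and which had B1 counts in plants 2 and 3 only. The median log2 change of the 8 was -7.00, where that of all genes tested was 0.00. The study chose these genes from the same libraries for a difference between the species across stages, so the list is not independent evidence of its direction. None of the 7 passed an FDR of 0.05 with the plant block, where the 8 genes had FDR values from 0.0989 to 0.1997. With the B1 library of plant 1 left out, 7 of these 8 genes passed an FDR of 0.01 (1.29% of all genes tested did), and the FDR values of the 8 ran from 1.88e-06 to 0.0189. That fit leaves out the lowest B1 value of each of the 8, so it is not independent evidence. Without any other B1 or B2 library, none of the 7 passed an FDR of 0.05 (FDR 0.0580 to 0.158), and without single B3 libraries their FDR was 0.0369 to 0.0646.

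RCORA09826 is the orthologue of *A. thaliana* *LAP5* and is annotated with sporopollenin biosynthesis. It was at 3.21, 352 and 661 CPM at B1 in plants 1, 2 and 3 and at 2.99, 2.71 and 2.43 CPM at B2. Plants 2 and 3 were high at B1, whereas plant 1 was as low at B1 as the B2 libraries. The log2 change was -6.96 (SE 1.19, FDR = 0.0301), and by plant it was -0.10, -6.99 and -8.05. The *C. rattanii* libraries were at 3.66, 3.26 and 8.95 CPM at B1, so plant 1 of *C. linearis* lay at the level of the sister species. At B3 the gene stayed low in all 3 *C. linearis* plants (2.98 CPM ± 0.42, SD, n = 3).

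RCORA03278, the orthologue of *LAP6*, had the same pattern over the plants. It was at 9.09, 624 and 1171 CPM at B1 and at 10.2, 10.3 and 7.21 CPM at B2. Plant 1 was slightly higher at B2 than at B1, so the stages overlapped. The log2 change was -6.02 (SE 1.07, FDR = 0.0303), with 0.17, -5.91 and -7.33 in plants 1, 2 and 3.

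The other sporopollenin gene, RCORA186672, was at 13.3, 214 and 419 CPM at B1 and at 12.1, 22.5 and 7.48 CPM at B2. Plant 2 kept the highest B2 value here, above plant 1 at both stages. Its log2 change was -3.94 (SE 0.79, FDR = 0.0402). RCORA14962, annotated with lipid metabolism besides exine formation, was at 1.48, 156 and 923 CPM at B1 and at 2.97, 2.01 and 1.34 CPM at B2, with a log2 change of -7.41 (SE 1.502, FDR = 0.0422). In plant 1 this gene was higher at B2.

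The 2 genes annotated with callose deposition in the cell wall had few counts at B2. RCORA36422 was at 0.556, 32.8 and 42.8 CPM at B1 and at 0.247, 0.131 and 1.61 CPM at B2, and its log2 change of -5.23 (SE 1.46) did not pass the test (FDR = 0.110). RCORA205649 had 0, 1538 and 1500 counts at B1 and 0, 1 and 0 at B2. It was not tested in edgeR with all libraries because it fell short of the filter. It had counts in 2 of 3 plants at B1 and almost none in any B2 library. It reached edgeR's test only when its B1 library at 0 counts was left out, through the 2 B1 libraries where it is high. No edgeR test of it is given for that reason. DESeq2, run without that filter, did call it lower with all libraries, and that call rests on the same 2 B1 libraries.

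The remaining 3 exine genes have no further annotation in the sources used here. RCORA171666 was at 5.93, 1296 and 2302 CPM at B1 and at 1.85, 1.83 and 3.41 CPM at B2, and it was lower at B2 in every plant without overlap. Its log2 change was -8.98 (SE 1.501, FDR = 0.0301), with -1.65, -9.42 and -9.37 in plants 1, 2 and 3. RCORA175575 was at 0.433, 76.0 and 106 CPM at B1 and at 0.222, 0.262 and 0.874 CPM at B2 (log2 change -7.04, SE 1.43, FDR = 0.0422). It differed from RCORA09826 in that its level was higher again at B3, at 7.13, 1.58 and 10.5 CPM. RCORA201861 had 0, 625 and 6631 counts at B1 and 1, 4 and 1 at B2, and its fall passed an FDR of 0.05 (FDR = 0.0449).

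**Figure D3:**
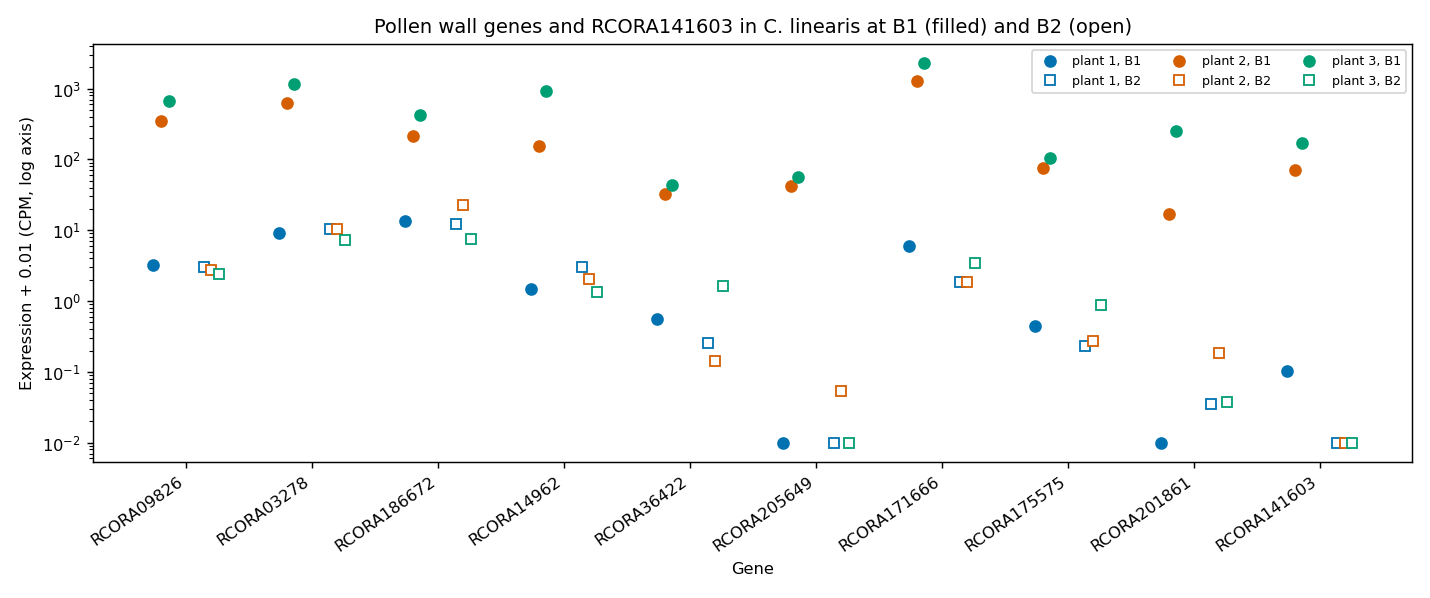
Expression plus 0.01 (CPM, log axis) in *C. linearis* for the 9 exine genes and RCORA141603, with filled circles for B1 and open squares for B2 and 1 color per plant. In each gene plants 2 and 3 are high at B1 (for RCORA09826 352 and 661 CPM), whereas the B1 value of plant 1 (3.21 CPM) lies with or near the B2 values.

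The same difference between plants ran through the 154 genes that fell at an FDR of 0.05. Their median log2 change was a fall by 4.75 (4.70 with 5 genes at 0 counts in every B2 library set to a floor of 3 counts), and 88 fell more than 16-fold. All 154 were lower at B2 in plants 2 and 3, and 132 were in plant 1, where the median change was -1.09 against -4.99 and -4.96 in plants 2 and 3. Plant 1 had the lowest of the 3 B1 values in 134 of the 154 genes. These genes together took 0.578% of the counts of the B1 library of plant 1, 3.93% in plant 2 and 4.81% in plant 3, and 0.116% to 0.234% of the B2 libraries. At B3 they took 0.101% to 0.269% and in *C. rattanii* 0.296% to 0.383% at any stage. The 154 genes were chosen for being lower at B2 than at B1 in *C. linearis*, so higher shares at B1 than at B2 follow from the choice. The shares describe how unevenly the 3 B1 libraries carry these genes, with plant 1 far below plants 2 and 3. What set plant 1 apart at B1 was not tested.

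**Figure D4:**
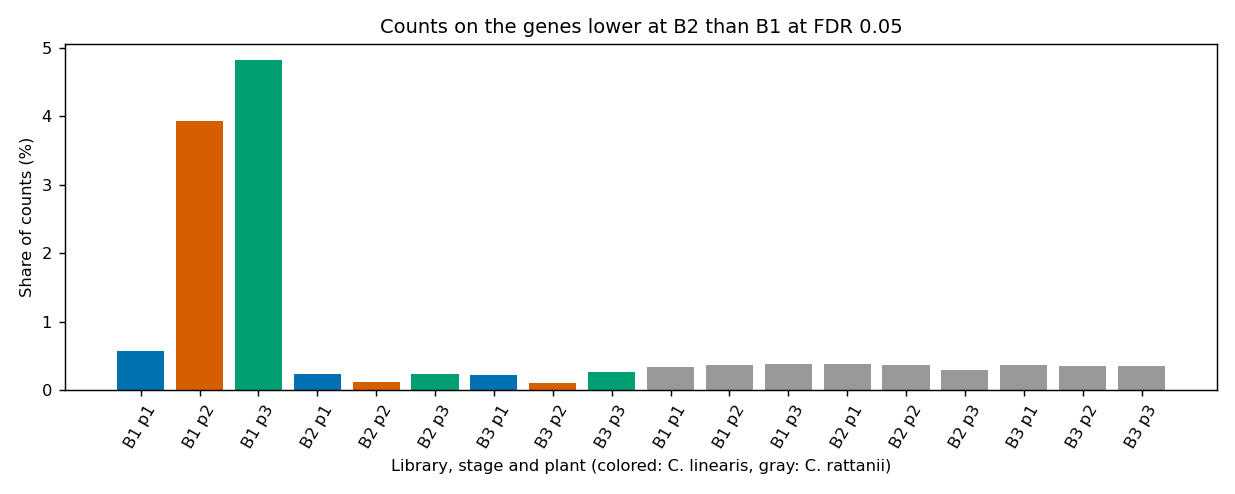
Share of all counts (%) taken by the 154 genes lower at B2 at an FDR of 0.05, for each of the 18 libraries by stage and plant (p1 to p3), with *C. linearis* in color and *C. rattanii* in gray. The genes were chosen by the B1 to B2 difference in *C. linearis*, and the bars show how unevenly the B1 plants carry it, with 0.578% in plant 1, 3.93% in plant 2 and 4.81% in plant 3.

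The 16 genes that rose at an FDR of 0.05 also had plant 1 apart at B1, where it held the highest of the 3 B1 values in 13 of the 16 and the lowest in 0. The median B1 level of the 16 was 1.004 CPM in plant 1, 0.352 CPM in plant 2 and 0.493 CPM in plant 3. All 16 were higher at B2 in each plant without overlap, as were 6.85% of all genes tested for the overlap. The 16 were chosen by the test of this same difference, so their agreement follows largely from the choice. Median log2 changes were 1.96, 2.66 and 2.34 in plants 1, 2 and 3. Their median size was 3.09 over the plants (2.81 with 1 gene at 0 counts in every B1 library set to the floor of 3 counts). They were genes of low level, with a median of 0.652 CPM at B1, 5.07 CPM at B2 and 8.25 CPM at B3. Calls were found in each of 4 near-equal groups of the tested genes by level, with larger numbers in the lower groups. From the lowest to the highest group they numbered 54, 64, 27 and 25 of the 170. The groups overlap in mean CPM, which reached 194 CPM in the lowest group and began at 29.7 CPM in the highest.

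RCORA141603, annotated with regulation of transcription, had no counts at B2. It had 3, 2573 and 4443 counts at B1 in plants 1, 2 and 3 and 0 counts in every B2 library. Against a floor of 3 counts per library it was at least 532-fold lower in plant 2 and at least 2056-fold lower in plant 3, while plant 1 gave no fold. It passed an FDR of 0.05 (FDR = 0.0341, 0.0522 with the plant block, 3.32e-05 without the B1 library of plant 1). The last fit leaves out the lowest B1 value of the gene, so it is not independent evidence. Without any other B1 or B2 library its FDR was between 0.0596 and 0.0964, and without single B3 libraries between 0.0438 and 0.0512. The gene was listed with at most 5 counts at B3.

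The study names 2 further genes of transcription regulation by identifier, and neither passed an FDR of 0.05 in this step. RCORA61416 was at 8.04, 3.197 and 3.68 CPM at B1 and at 20.8, 47.0 and 15.8 CPM at B2, higher in every plant without overlap, with a log2 change of 2.49 (SE 0.80, FDR = 0.149). At B3 it was at 43.2, 264 and 36.0 CPM. RCORA41810 was at 0.690 CPM ± 0.23 at B1 and 1.01 CPM ± 0.39 at B2 (SD, n = 3), a difference within the spread of the plants (log2 change 0.54, SE 0.41, FDR = 0.467). Of the 3 transcription genes so named, 1 fell and 0 rose at an FDR of 0.05, where 0.553% of all genes tested fell and 0.0575% rose.

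None of the 5 xyloglucan genes passed an FDR of 0.05. All 5 log2 changes were above 0, between 0.61 and 3.27 (FDR 0.165 to 0.525), as were those of 13933 of the 27837 genes tested. These genes too were chosen by the study from the same libraries, so their shared direction is not independent evidence. RCORA202024 was at 9.86, 2.82 and 2.77 CPM at B1 and at 30.3, 40.0 and 13.7 CPM at B2, higher in every plant (log2 change 2.44, SE 0.83). RCORA191130 was at 48.1, 24.5 and 10.2 CPM at B1 and at 62.3, 54.1 and 105 CPM at B2 (log2 change 1.42, SE 0.54). Both had stages that did not overlap, as had 6.85% of all genes tested with B2 higher. RCORA205395 did not overlap either, by a narrow margin (at most 0.46358 CPM at B1 and at least 0.46435 CPM at B2). RCORA202024 and RCORA191130 passed an FDR of 0.05 without the B1 library of plant 1 (FDR = 0.0492 and 0.0439). That fit leaves out the highest B1 value of both genes (9.86 and 48.1 CPM), so passing is not independent evidence. Neither of these 2 genes passed with the plant block on the same libraries (FDR = 0.0801 and 0.0552).

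For the xyloglucan gene RCORA41780 the early step was small beside the later one. It was at 37.4 CPM ± 10.2 at B1, 57.2 CPM ± 17.0 at B2 and 986 CPM ± 247 at B3 (SD, n = 3). RCORA205395 was at 0.342 CPM ± 0.106 at B1, 1.25 CPM ± 0.88 at B2 and 73.7 CPM ± 74.3 at B3. RCORA38638 went opposite ways in single plants, from 10.3, 0.217 and 0.796 CPM at B1 to 4.94, 88.3 and 16.2 CPM at B2. Neither of the 2 genes of glycerol-3-phosphate catabolism passed the test. RCORA02590 was at 18.1 CPM ± 6.34 at B1 and 32.2 CPM ± 16.8 at B2 (log2 change 0.83, FDR = 0.324), and RCORA68085 at 21.8 CPM ± 1.19 and 28.4 CPM ± 8.11 (log2 change 0.38, FDR = 0.453). In both the difference lay within the spread of the plants.

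Across all genes, the 3 plants did not change alike. The median size of the log2 change was 0.39 in plant 1, 0.84 in plant 2 and 0.62 in plant 3. A change of at least 4-fold upwards was seen in 907, 2891 and 2977 genes in plants 1, 2 and 3, and downwards in 1110, 2017 and 1082 genes. Between plants 2 and 3 the changes correlated at r = 0.54 across genes, between plants 1 and 2 at 0.22 and between plants 1 and 3 at -0.10. The sign was the same in all 3 plants for 10021 genes, 36.0% of those tested, of which 4834 were higher and 5187 lower at B2.

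**Figure D5:**
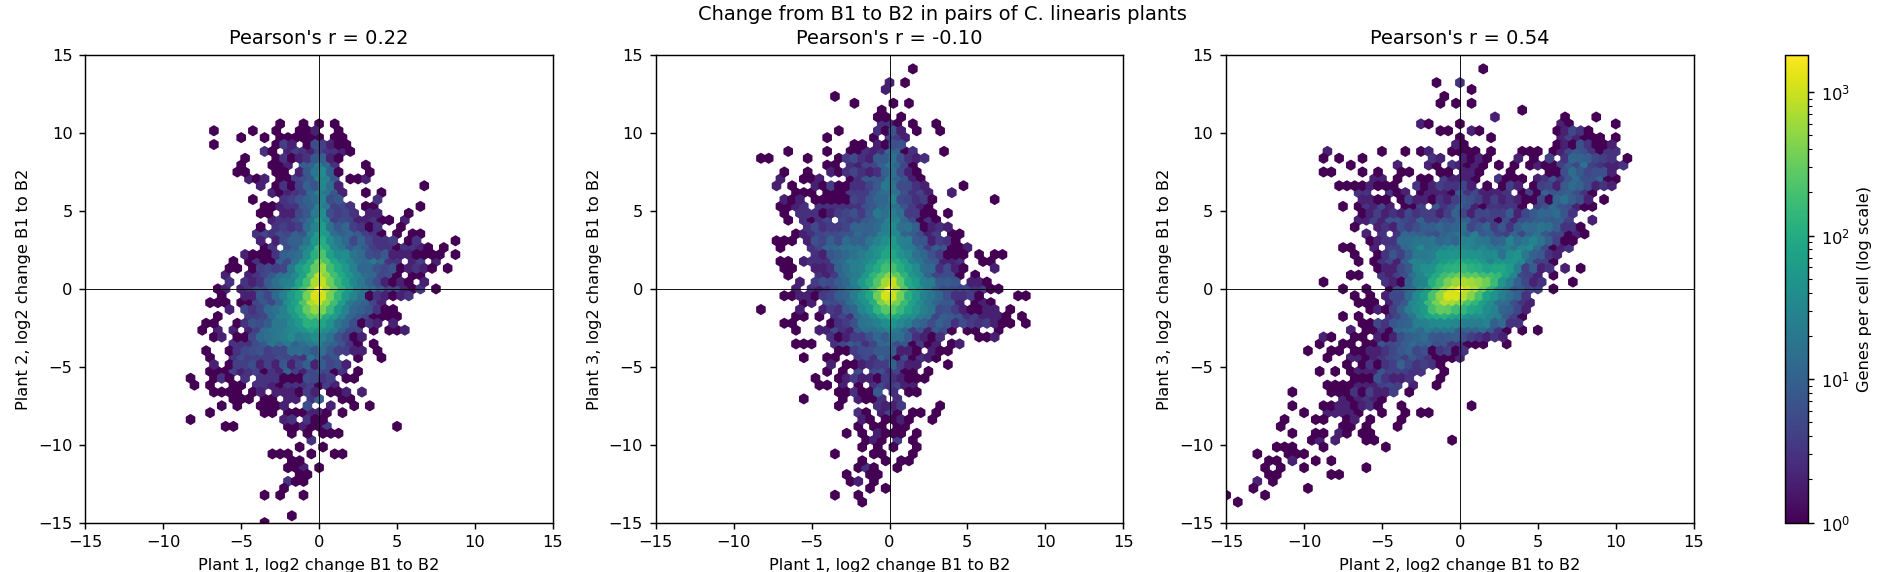
Log2 change in CPM from B1 to B2 (prior count of 2) in each pair of *C. linearis* plants across 27837 genes, with the color of each hexagon giving the number of genes on a log scale. The cloud follows the diagonal for plants 2 and 3 (r = 0.54) and runs along the axis of plant 2 or 3 in the panels with plant 1 (r = 0.22 and -0.10).

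In 4835 genes (17.4%) the 3 B1 values did not overlap the 3 B2 values, with 1907 higher (6.85%) and 2928 lower (10.5%) at B2. Scaling by total counts alone moved the median log2 change of all genes from 0.00 to -0.23 and this split to 1100 higher and 3955 lower, so the direction of small changes depends on the scaling. The genes that passed an FDR of 0.05 were mostly lower under each scaling, with 17 higher and 144 lower under RLE size factors and 5 higher and 108 lower under total counts. A change of at least 2-fold in every plant was seen in 156 genes that were higher and 172 that were lower, among 21070 genes with enough counts, and of at least 4-fold in 12 and 25. Among all genes of the table, 4 had 0 counts in every B1 library and at least 10 in every B2 library, and 5 had the reverse.

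In *C. rattanii* the same step gave 0 genes past an FDR of 0.01 or 0.05 in edgeR's quasi-likelihood test, with 1475 at an unadjusted p under 0.05 (5.30%). DESeq2 called 50 genes there at an FDR of 0.01 (0.130% of the genes with any count). The B1 and B2 values of its plants did not overlap in 1310 genes that were higher (4.71%) and 1450 that were lower (5.21%). The difference between the species in the step from B1 to B2 was tested for every gene. It passed an FDR of 0.01 in 0 genes in edgeR, with 2476 at an unadjusted p under 0.05 (8.89%). In DESeq2 it passed in 164 genes (0.425% of the genes with any count). The Wald test of DESeq2 is the one the study used for its early contrast, where it also reported 164 genes. With the plant block in edgeR, the difference passed in 2 genes (0.00718%). Without the B1 library of *C. linearis* plant 1 it passed in 110 of 28650 genes (0.384%), 5 with a higher and 105 with a lower change in *C. linearis*. The balance depended on the fit, since on the same libraries the plant block gave 20 higher and 71 lower and DESeq2 466 higher and 339 lower. For the 8 exine genes tested with all libraries, the FDR of this difference was 0.139 to 0.426 in edgeR's quasi-likelihood test without the block. The 154 falling genes had a median of 66.1 CPM at B1 and 1.28 CPM at B2 in *C. linearis*, and of 2.53 and 2.099 CPM in *C. rattanii*. Without the B1 library of plant 1, the difference between the species passed an FDR of 0.01 for 7 of these 8 exine genes (0.384% of all genes tested did). Among them were RCORA09826 (log2 difference -7.09, SE 0.53, FDR = 1.22e-05) and RCORA03278 (-6.70, SE 0.49, FDR = 1.22e-05), while RCORA36422 missed it (FDR = 0.113). The study chose the exine genes from the same libraries for such a difference, and this fit leaves out the B1 library where they were lowest. Passing was therefore largely set by the choice of genes and libraries and is not independent evidence.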

How the data were processed

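RNA-seq was made from whole floral buds, with poly(A) selection and a strand-marking kit. Alignment by the authors used STAR in 2-pass mode, against the *C. rattanii* assembly for both species, and featureCounts assigned reads to gene models. The authors deposited raw read counts per gene, neither normalized nor filtered. The sources used here do not give strand or multi-mapping settings, so values of near-identical copies are uncertain, and *C. linearis* reads were placed on the genome of its sister species. Species, stage and plant came from the sample titles. GEO's organism field gives *C. rattanii* throughout, at odds with the titles and genotypes of the 9 *C. linearis* libraries. Of the columns in the table, 2 named for all samples of a species were not used.

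The counts of all 18 libraries were analysed in R 4.3.3 with edgeR 4.0.16 (filterByExpr on the 6 groups, TMM, robust quasi-likelihood fit on species, stage and species*stage). Contrasts for B1 to B2 and for the difference between the species were adjusted by Benjamini-Hochberg over all tested genes, with the threshold of 0.01 used in the study. SE values are the change divided by the square root of F. DESeq2 1.42.0, limma-voom 3.58.1, other scalings, filters and sets of libraries, the plant block and leaving out libraries or plants were tried as alternatives. Of these, DESeq2 was the tool of the study. The fits were tested on simulated data. Log2 values by plant used a prior count of 2. A gene at 0 in a whole group was compared at a floor of 3 counts per library, which covers counting error only.

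Libraries with the same number come from the same plant, which pairs them. Deviations from the group means correlated at -0.04, -0.45 and 0.02 between the B1 and B2 libraries of plants 1, 2 and 3. Between B1 and B2 libraries of different plants they correlated at -0.17 to 0.36, so libraries of the same plant were not more alike by this measure. Libraries of a group differed by more than sampling noise (chi-square over degrees of freedom from 49.5 to 434), so each was kept. The p-values of the main fit rest on the spread of 3 plants within each of the 6 groups. This spread was estimated together over all 18 libraries of both species, with the libraries of a plant at different stages taken as independent.

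The genes, lists and alternatives were chosen with earlier results of these data known. Named genes were those the study names by identifier in its text or legends, those an earlier description of these data named under exine formation (3), xyloglucan (5) and glycerol-3-phosphate (2), and at most 2 genes that rose and 2 that fell with the largest log2 change among those past an FDR of 0.01 that moved the same way in each plant and had at least 10 counts in each of the 6 libraries, or otherwise with the lowest p. Gene functions are those the study gives. Genes from an earlier description of the data had been read from a picture.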

Additional observations from a re-analysis of the deposited data

Results flagged for a closer look

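RCORA186672 and RCORA171666, both genes of pollen exine formation, were lower at B2 than at B1 in every *C. linearis* plant. In the *C. rattanii* plants the log2 changes were above 0 but small, from 0.13 to 0.68 for RCORA186672 and from 0.04 to 1.01 for RCORA171666. Neither gene passed the test for this step in *C. rattanii*, so a rise there is not shown. The difference between the species in the step was -4.37 on the log2 scale for RCORA186672 and -9.63 for RCORA171666. In edgeR's quasi-likelihood test with all 18 libraries it did not pass the threshold for either gene (FDR = 0.255 and 0.139). It did without the B1 library of *C. linearis* plant 1 (FDR = 0.000118 and 5.07e-05). That fit leaves out the lowest B1 value of both genes, which the study chose from the same libraries, so it is not independent evidence. In plant 1 of *C. linearis* the changes were -0.14 for RCORA186672 and -1.65 for RCORA171666.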

How the results depend on the processing

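The numbers of genes past an FDR of 0.01 moved with the test. From B1 to B2 in *C. linearis*, where edgeR's quasi-likelihood test called 4, DESeq2 called 704, edgeR's likelihood ratio test 429 and limma-voom with a quality weight per library 3002 (2082 higher and 920 lower). For *C. rattanii* these tests called 50, 11 and 1, and for the difference between the species in this step 164, 91 and 20, against 0 and 0. In *C. linearis* the count was 0 with RLE size factors, with total counts only and without a filter on low counts. At an FDR of 0.05 these fits called 161, 113 and 123 genes, against 170 in the main fit. The count was 0 at an FDR of 0.01 and of 0.05 in 3 fits on fewer libraries. These held the libraries of the species only, the 6 libraries compared only, and these 6 with the plant block (lowest FDR 0.279, 0.420 and 0.529). In the main fit the lowest FDR of 0.00993 was just under the threshold. In the quasi-likelihood test, the plant block called 9 genes in *C. linearis* and 2 for the difference, and DESeq2 with the block called 681, 107 in *C. rattanii* and 239 for the difference. Leaving out single libraries or plants gave 0 to 369 genes in *C. linearis*, 0 to 1 in *C. rattanii* and 0 to 110 for the difference. Among these, leaving out all libraries of *C. linearis* plants 1, 2 and 3 in turn gave 170, 0 and 31 genes in *C. linearis*, and leaving out plants 1 and 3 gave 83 and 19 for the difference. Chosen after seeing the data, fits without the B1 library of *C. linearis* plant 1 gave 3167 genes in *C. linearis* and 805 for the difference with DESeq2, 283 and 91 with the plant block, and 2263 and 215 at an FDR of 0.05. Genes without overlap between B1 and B2 numbered 4835, and between 7246 and 15544 without 1 plant, while genes whose change had 1 sign in all plants numbered 10021, and between 13431 and 17470 without 1 plant, since fewer plants have to agree. For the named genes, 406 values under the alternatives kept their direction and their side of the threshold, 54 passed it where they had not, 63 no longer passed and 0 changed direction. At this depth the spread between 3 plants, more than counting error, limits the precision, and genes with few counts at B2 have uncertain fold changes.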
